A study of Mus musculus with 2 samples.

Results

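In 2 sections of mouse cerebellum that carried transplanted breast tumors, 141 of 7423 spots under tissue were chosen by their content of S100a8 and S100a9 transcripts, the pair by which neutrophils are usually found in tissue. Among spots with 2000 UMIs or more (a UMI is 1 counted molecule), the top 2% of each section by UMIs of the pair per 1000000 UMIs of the spot (CPM) were taken, which gave 63 spots in section 1 and 78 in section 2. They were compared with the other spots within 3 steps of the hexagonal array, 1020 in section 1 and 897 in section 2. The remaining 2081 and 2927 spots are given beside them. The working name of the chosen spots was neutrophil-rich, and since receptor and mature neutrophil genes were higher with the pair mainly in section 2, where granule genes as a group were not, they are called S100a8/S100a9-rich spots here.

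Each section came from the untreated cerebellum of 1 mouse, so the study had 1 condition, 2 biological replicates and no tumor-free section. Per the methods, tumors were grown from HP organoids, which are mammary tumor organoids from C57BL/6J mice whose HER2V777L and PIK3CAH1047R alleles had been switched on with Cre, and which were dissociated and injected into the cerebellum of B6 mice with an intact immune system, at an age of 5 months. The labels name the organoids HP-F1 in section 1 and HP-B6 in section 2, both with +cre, and give B6-HP as the cell line of both. They do not explain the unlike names, so whether the organoid source differed between the sections is not known. The formalin-fixed sections were read with Visium CytAssist, where probe pairs matching mouse transcripts are moved from the tissue onto a grid of barcoded spots, each wide enough to cover a few cells or pieces of them. The sections differed in what surrounded the chosen spots: 9 markers of tumor epithelium summed to 51.8 CPM in the nearby spots of section 1 and to 6565 CPM in section 2, and 8 fibroblast markers to 22442 and 507 CPM. In the nearby spots of section 1 the epithelial markers gave 0.0734 UMIs per gene and spot, and Krt19 among them was at 0 in the chosen spots.

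Neutrophils are short-lived phagocytes that leave the blood through vessel walls toward chemokines such as the CXCR2 ligands. S100a8 and S100a9 encode the subunits of calprotectin, which fills much of the neutrophil cytosol and is also made by some monocytes, macrophages and stressed epithelial cells. Granule proteins are mostly transcribed in the bone marrow, while mature neutrophils in tissue transcribe receptors such as Cxcr2, Csf3r and Il1r2 and cytokines such as Il1b. Few neutrophils are found in the healthy cerebellum.

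The values that chose the spots were small numbers of molecules. In section 1 the 63 spots held 68 UMIs of S100a8 and 62 of S100a9, and 31 of them had 1 UMI of the pair, 11 had 2 and 21 had 3 or more, with a highest count of 5. In section 2 the 78 spots held 176 and 277 UMIs, 60 had 3 or more, 14 had 10 or more, and the highest count was 24. As a description, since the rule used these values, S100a8 was at 126 CPM in the chosen spots, 14.4 in nearby spots and 7.85 in the remaining spots of section 1, and at 146, 20.3 and 7.31 CPM in section 2. S100a9 was at 115, 10.1 and 5.18 CPM in section 1 and at 230, 28.4 and 9.67 CPM in section 2. The last spot inside the choice of section 1 had 165 CPM (1 UMI of 6072) and the first one outside had 164 CPM (2 UMIs of 12188). In section 2 the last spot inside had 251.8 CPM (4 UMIs of 15887) and the first outside had 251.7 (5 of 19863). Because the measure is a share, 11 spots of section 1 and 73 of section 2 with 5 or more UMIs of the pair were not chosen, and their median depth was 58047 and 45524 UMIs.

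**Figure D1:**
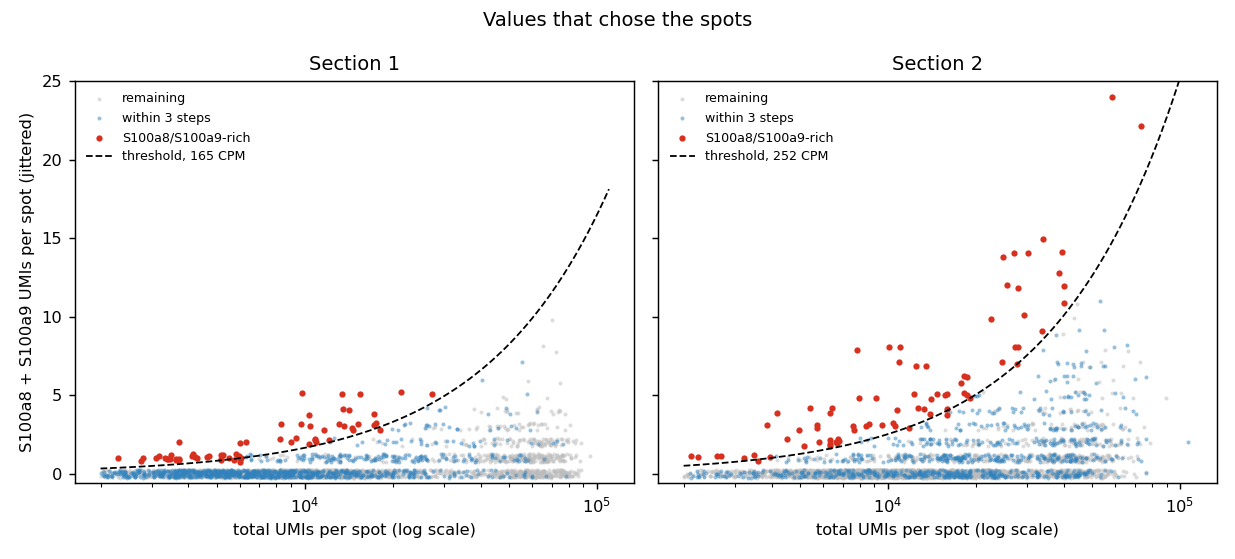
UMIs of S100a8 and S100a9 per spot (y axis, with a small jitter) against total UMIs per spot (x axis, log scale) in spots of 2000 UMIs or more, 1 panel per section. The dashed line is the level of the last spot inside the choice (165 CPM in section 1 and 252 CPM in section 2): the chosen spots of section 1 hold 1 to 5 UMIs of the pair and lie at low depth, those of section 2 reach 24.

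The chosen spots were shallower than their surroundings, with a median of 6018 UMIs against 8053 in nearby and 11998 in remaining spots of section 1, and of 10940 against 18366 and 11490 in section 2. Summed, they held 538056 and 1203938 UMIs, against 13010750 and 20921798 in nearby spots. A level in CPM can therefore be higher in the chosen spots where the UMIs per spot are not, and UMIs per spot are given beside CPM for the main low genes. As a reading of how few UMIs genes of absent or rare cells give, the 7 genes of mast cells and basophils had 0.0159 to 0.0312 UMIs per gene and spot in the chosen, nearby and remaining spots of both sections.

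Each gene of the pair was also read in spots chosen on the other gene alone, which leaves it out of the choice. In the 78 spots of section 2 chosen on S100a8, S100a9 was at 127 CPM (143 UMIs, 1.83 per spot) against 30.3 CPM in spots within 3 steps of them (0.617 per spot), a ratio of 4.20 with a 95% counting interval of 3.48 to 5.03. In section 1 it was at 32.7 CPM (23 UMIs, 0.365 per spot) against 11.2 CPM (0.167 per spot), a ratio of 2.93 (1.81 to 4.54). In spots chosen on S100a9, the ratio of S100a8 was 4.75 (3.83 to 5.85) in section 2 and 2.35 (1.44 to 3.66) in section 1. Each gene was thus at a higher level where the other was high, and 45 of 78 spots chosen on S100a8 in section 2, and 15 of 63 in section 1, had any UMI of S100a9. All counting intervals here are exact, cover counting error alone and say nothing of the spread between mice.

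Many chosen spots touched another chosen spot, 49 of 78 in section 2 and 26 of 63 in section 1. In section 1 they fell into 45 groups of touching spots, 37 of them single spots and the largest with 11, and in section 2 into 41 groups, 29 of them single and the largest with 10. Of the places next to a chosen spot that held a spot of sufficient depth, 15.6% in section 1 and 24.5% in section 2 were chosen spots too, against 1.99% and 2.00% of all such spots.

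**Figure D2:**
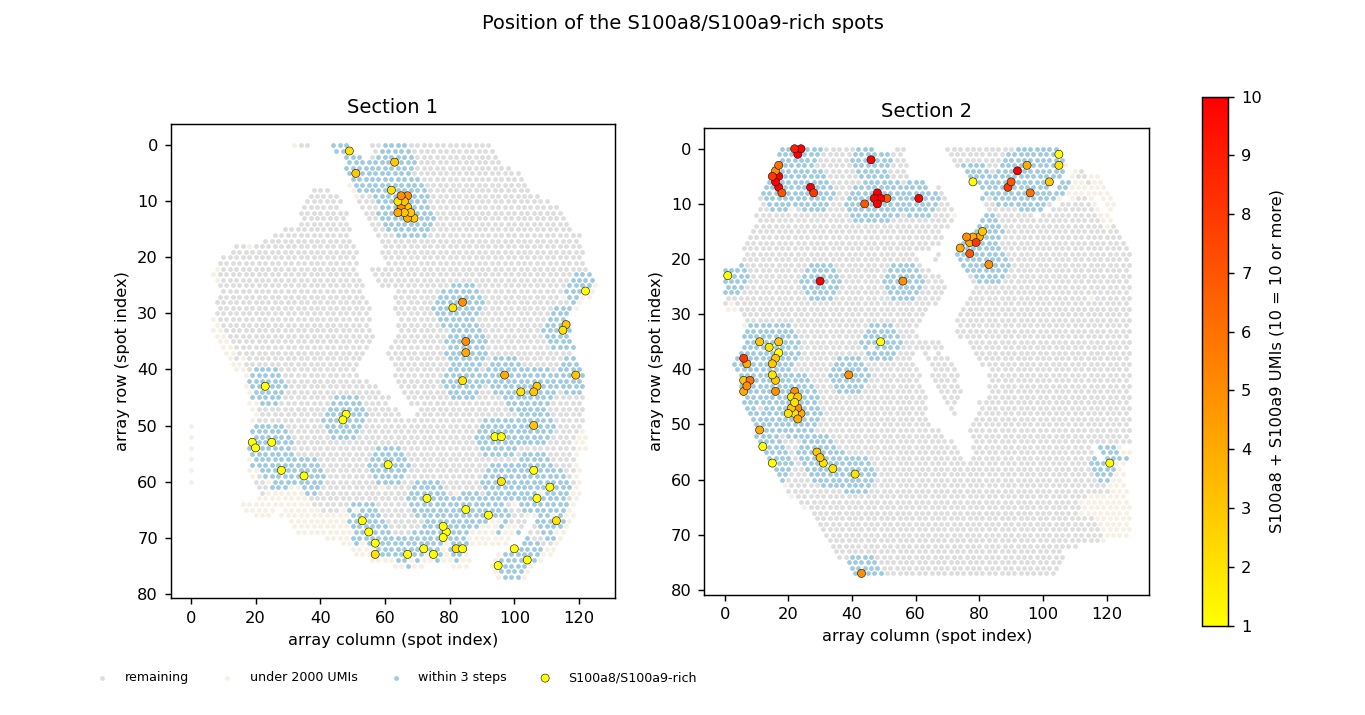
Position of the spots of each section on the array (x axis, array column; y axis, array row), with S100a8/S100a9-rich spots colored by their UMIs of the pair, spots within 3 steps in blue and the others pale. Section 1 has 1 group of 11 touching spots with several UMIs each and many scattered spots with 1 UMI, while in section 2 most chosen spots lie in groups along the upper and left sides.

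No gene outside the pair passed the test between chosen and nearby spots. UMIs were added up per section and region into 6 libraries and tested by the quasi-likelihood method of edgeR, blocked on section with 2 residual degrees of freedom, and of 19173 genes 0 were called higher (0%) and 0 lower (0%) at a Benjamini-Hochberg adjusted p under 0.05. At an unadjusted p under 0.05 there were 414 genes, 276 of them higher and 138 lower, and DESeq2 called 5 higher and 0 lower. The smallest adjusted p in edgeR was 0.108. What follows therefore gives levels and ratios within each section, and no single gene below passed this test. In these bulk sums, more cells of a type and more RNA per cell cannot be told apart.

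To describe size, genes of 5 CPM or more over the spots of 2000 UMIs or more of each section were counted when they were 2-fold or more higher in CPM in the chosen than in nearby spots. Of 12330 such genes, 175 (1.42%) met this in section 1, 136 (1.1%) in section 2 and 23 (0.187%) in both. Of the 35 measured genes in 3 lists of neutrophil genes, 10 were over the 5 CPM floor, of which 2 met it in section 1, 7 in section 2 and 2, Il1r2 and Hdc, in both. The lists were written with earlier results of these data known, so these counts describe the lists and are no independent evidence of their direction.

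Receptors and other genes of mature neutrophils were clearest in section 2. There, 20 genes summed to 420 CPM in the chosen spots, 157 in nearby and 105 in remaining spots, a ratio to nearby spots of 2.68 (2.44 to 2.95), and 0.324, 0.183 and 0.0893 UMIs per gene and spot. All 6 of these genes over the 5 CPM floor were 2-fold or more higher in the chosen spots of section 2. In section 1 the same sum was 323, 211 and 185 CPM, a ratio of 1.54 (1.31 to 1.79), but 0.138, 0.134 and 0.223 UMIs per gene and spot, and 2 of the 6 were 2-fold or more higher. Per spot, the median of this sum was 375 CPM in chosen and 137 in nearby spots of section 2, and 193 and 145 CPM in section 1.

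Cxcr2, the receptor for the chemokines that draw neutrophils into tissue, was at 20.8 CPM in the chosen spots of section 2 (25 UMIs, 0.321 per spot) against 4.45 CPM nearby (93 UMIs, 0.104 per spot). In section 1 it was at 11.2 CPM (6 UMIs) against 2.77 (36 UMIs), a ratio of 4.03 with an interval of 1.39 to 9.66. The fitted log2 fold change was 2.15 with a standard error of 0.50 (edgeR adjusted p = 0.947). Both sections were thus on the same side, and the count in section 1 was too small to give its size.

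Il1r2, a decoy receptor that binds IL1 without signaling, was at 42.4 against 13.3 CPM in section 2 (51 and 278 UMIs) and at 27.9 against 8.15 CPM in section 1 (15 and 106 UMIs), with a log2 fold change of 1.71 ± 0.39 (SE, edgeR adjusted p = 0.947). Hdc, which makes histamine, was at 27.4 against 8.13 CPM in section 2 and 18.6 against 7.92 CPM in section 1. These were the genes of the list that were 2-fold higher in both sections among those over the floor.

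Csf3r, the receptor for the growth factor G-CSF, had unlike values in the sections, a difference that was not tested. It was at 83.9 CPM in the chosen and 26.8 in nearby spots of section 2 (101 and 560 UMIs), and at 35.3 and 36.6 CPM in section 1 (19 and 476 UMIs), where it also reached 0.933 UMIs per spot in the remaining spots against 0.302 in the chosen ones. Clec4d, a C-type lectin of myeloid cells, was at 86.4 against 27.7 CPM in section 2 and at 83.6 against 47.7 CPM in section 1. Mxd1, a transcription factor that opposes MYC, was at 74.8 against 32.1 CPM in section 2 and at 42.7 against 29.3 CPM in section 1.

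Some other genes of the mature neutrophil list were rare even where these receptors were high. Wfdc21 was at 9.14 CPM (11 UMIs) in the chosen spots of section 2 against 1.34 nearby, and Retnlg at 6.64 CPM (8 UMIs) against 1.29, while in section 1 they had 3 UMIs and 1 UMI. Ly6g, the surface protein by which mouse neutrophils are sorted, had 2 UMIs in the chosen spots of section 1 and 1 UMI in section 2, or 0.0317 and 0.0128 per spot, against 0.0373 and 0.0290 in nearby spots. Over all regions it ranged from 0.0128 to 0.0373 per spot, close to the range of the mast cell genes.

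Granule genes specific to neutrophils gave few UMIs. The 5 primary granule genes, among them Mpo and Elane, which encode a peroxidase and a protease stored in the first granules, gave 22 UMIs in the chosen spots of section 1 and 17 in section 2, or 0.0698 and 0.0436 per gene and spot, against 0.0482 and 0.0417 in nearby spots. As a share of UMIs this was a ratio of 2.16 (1.33 to 3.35) in section 1 and 1.58 (0.901 to 2.60) in section 2. Mpo had 5 UMIs in the chosen spots of section 1 (9.29 against 2.23 CPM) and 0 in section 2. Camp and Ngp, of the secondary granules, had 0 and 4 UMIs in section 1 and 3 UMIs and 1 UMI in section 2.

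Other granule genes were abundant and had unlike values in the sections. The 10 genes of the secondary and tertiary granules had ratios of 1.33 (1.22 to 1.45) in section 1 and 0.935 (0.894 to 0.976) in section 2. Lcn2, which binds bacterial siderophores and is also made by epithelium and reactive astrocytes, was at 823 against 565 CPM in section 1 and at 1497 against 1446 CPM in section 2. Ltf, which encodes lactoferrin and is also a product of mammary epithelium, was lower in the chosen spots of section 2, at 116 against 348 CPM (140 and 7287 UMIs), and had 5 UMIs in those of section 1. Mmp9, a gelatinase of neutrophils and macrophages, was at 66.4 against 29.7 CPM in section 2 and at 149 against 172 CPM in section 1. The ratio of all 35 neutrophil genes was 1.39 (1.29 to 1.49) in section 1 and 1.07 (1.03 to 1.11) in section 2. It was 1.54 (1.35 to 1.75) and 2.18 (2.00 to 2.37) without Ltf, Lcn2, Hp and Mmp9, which other cells share. Some genes that were kept, such as Clec4d, are shared as well. Since the abundant Ltf was lower and Lcn2 similar in section 2, the higher ratio there depends on which genes were left out. Counted as UMIs per spot, the ratio of all 35 was 0.928 in section 1 and 0.708 in section 2.

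**Figure D3:**
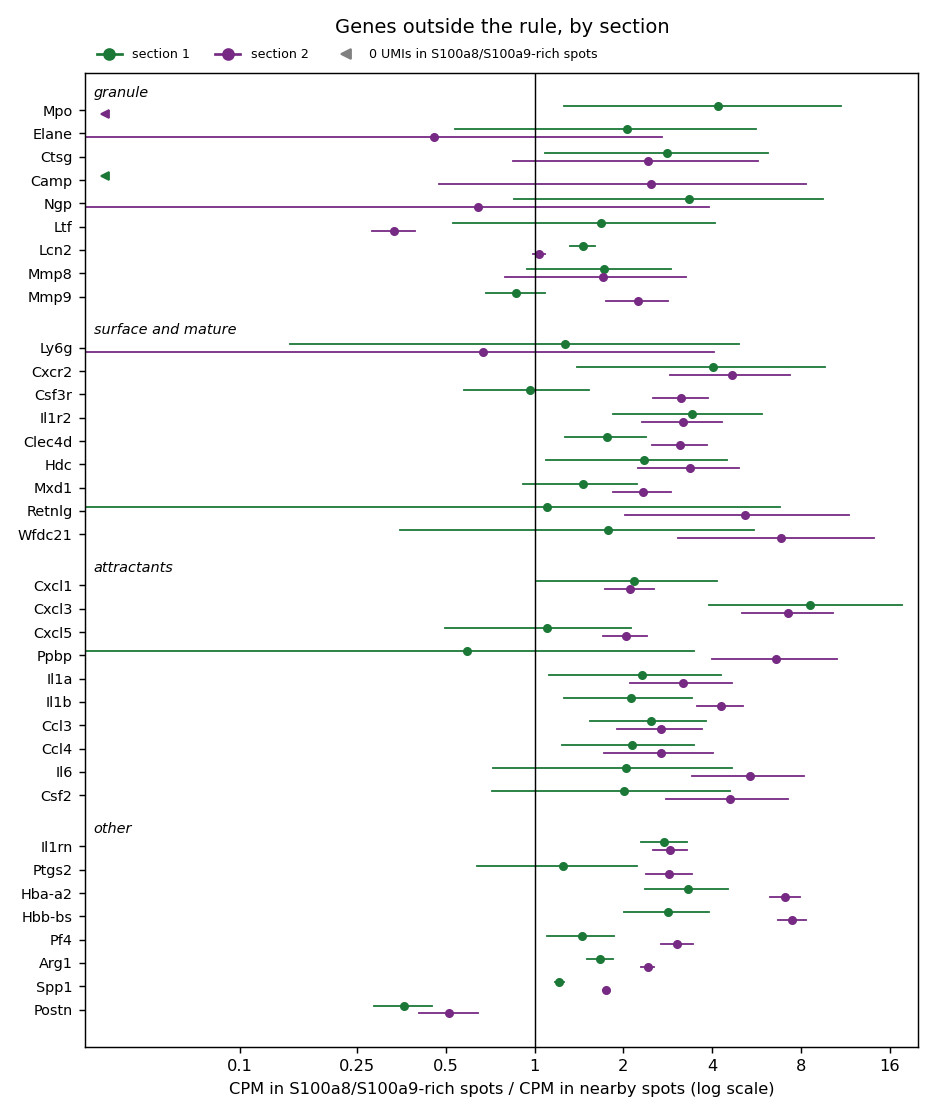
Ratio of CPM in S100a8/S100a9-rich to CPM in nearby spots for genes outside the pair (x axis, log scale), in section 1 (green) and section 2 (purple), with points for the ratio and bars for the exact 95% counting interval. Cxcr2, Il1r2, Hdc, Cxcl3, Il1b, Il1rn, Hba-a2 and Hbb-bs lie above 1 in both sections, while Ltf lies at 0.334 in section 2 and Postn below 1 in both.

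Chemokines and cytokines that attract or feed neutrophils were higher beside the pair as a group. The 14 measured genes summed to 563 CPM in the chosen, 205 in nearby and 100 in remaining spots of section 2, a ratio of 2.75 (2.53 to 2.98), and to 229, 119 and 68.9 CPM in section 1, a ratio of 1.92 (1.59 to 2.31). Of the 6 over the floor, 4 were 2-fold or more higher in both sections: Il1a, Il1b, Ccl3 and Ccl4. The median log2 fold change over the 13 tested genes was 1.33, beside -0.01 over all genes tested. The primary granule list, with 22 and 17 UMIs in the chosen spots, also had a median of 0.80, so such medians say little of rare genes.

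Cxcl3, a CXCR2 ligand, had the largest fitted fold change of the 13. It was at 39.0 CPM in the chosen spots of section 2 (47 UMIs, 0.603 per spot) against 5.40 nearby (113 UMIs, 0.126 per spot), and at 20.4 CPM in section 1 (11 UMIs, 0.175 per spot) against 2.38 (31 UMIs, 0.0304 per spot). The log2 fold change was 2.90 ± 0.46 (SE, edgeR adjusted p = 0.136), and 8 of 18 alternative settings called it higher, with adjusted p from 1.25e-08 to 1. Cxcl1 and Cxcl5, other CXCR2 ligands, were at 105 against 50.1 and at 126 against 62.0 CPM in section 2, and at 18.6 against 8.53 and 16.7 against 15.2 CPM in section 1. Ppbp, a CXCR2 ligand of platelets, had 25 UMIs in the chosen spots of section 2 (20.8 against 3.15 CPM) and 1 UMI in section 1.

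Il1b, the inflammatory cytokine that myeloid cells release on activation, was at 127 against 29.8 CPM in section 2 (153 and 623 UMIs) and at 35.3 against 16.6 CPM in section 1 (19 and 216 UMIs). Il1rn, the antagonist of the same receptor, was at 214 against 74.2 CPM in section 2 (258 and 1553 UMIs) and at 258 against 94.0 CPM in section 1 (139 and 1223 UMIs). Its ratios were 2.89 and 2.75 and its log2 fold change 1.45 ± 0.24 (SE, edgeR adjusted p = 0.141), and 7 of 18 alternative settings called it, with adjusted p from 9.85e-10 to 1. It was the only one of the 7 genes over the floor in the list of IL1 response and acute phase that was 2-fold higher in both sections, and the list as a whole was at 1216 against 811 CPM in section 2 and at 901 against 621 CPM in section 1. Il6 and Csf2, which sustain myeloid cells, were at 24.1 against 4.49 and 19.9 against 4.35 CPM in section 2 and had 6 UMIs each in the chosen spots of section 1.

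The machinery of neutrophil attack and entry showed smaller differences. The 4 measured subunits of the NADPH oxidase, shared with macrophages, summed to 931 against 909 CPM in section 1, a ratio of 1.02 (0.935 to 1.12), and to 581 against 416 CPM in section 2, a ratio of 1.40 (1.29 to 1.51). Adhesion molecules by which leukocytes cross vessel walls, 10 genes, had ratios of 0.964 (0.869 to 1.07) in section 1 and 1.53 (1.40 to 1.66) in section 2. Chemoattractant receptors and leukotriene enzymes, 8 genes, had ratios of 1.30 (1.19 to 1.42) and 1.38 (1.27 to 1.49), with 0 of 6 genes over the floor 2-fold higher in both sections. Receptors of the S100a8 and S100a9 proteins, 4 genes with Tlr4 among them, had ratios of 1.70 (1.40 to 2.06) and 1.29 (1.13 to 1.47). The 6 genes described in neutrophils of tumors had ratios of 1.60 (1.29 to 1.96) in section 1 and 2.15 (1.91 to 2.40) in section 2. Among them, Ptgs2, the prostaglandin synthase, was at 117 against 40.9 CPM in section 2 and at 22.3 against 17.8 in section 1, and Cd274, which encodes PD-L1, was at 75.6 against 33.1 and 100 against 66.5 CPM.

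At equal depth the share of spots with a UMI differed for some of these genes, and for others too few spots had a UMI to say. With every spot thinned to 2000 UMIs, Csf3r was found in 16 of 78 chosen spots (20.5%, exact 95% interval 12.2 to 31.2) and in 8.58% of nearby spots (6.83 to 10.6). Il1b was found in 16 of 78 (20.5%) against 6.80% nearby, and Cxcl3 in 7 of 78 (8.97%) against 0.892%. In section 1 Csf3r was found in 4 of 63 chosen spots (6.35%) against 5.10%, Il1b in 7 of 63 (11.1%) against 2.16% and Cxcl3 in 3 of 63 (4.76%) against 0.196%. Hdc, by contrast, was found in 3 of 78 chosen spots (3.85%) against 3.01% in section 2 and in 1 of 63 (1.59%) against 1.76% in section 1, and its fitted log2 fold change was 0.18 on thinned spots, beside 1.54 on all UMIs. That of Cxcl1 was 0.11 on thinned spots, beside 1.04. Before thinning, the shares for Csf3r were 65.4% against 43.1% in section 2 and 30.2% against 27.0% in section 1. The mast cell gene Cpa3, read as background, was found after thinning in 0 of 78 and 0 of 63 chosen spots and in 0.223% and 0.686% of nearby spots. These shares are of spots, which are not replicates.

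Genes of other cells were also higher beside the pair, with large ratios for hemoglobin, 7.16 (6.63 to 7.73) in section 2 and 3.02 (2.40 to 3.75) in section 1. In section 1 the ratio was 1.19 (0.846 to 1.64) when spots were chosen on S100a8 alone, where that of the mature neutrophil genes was 1.31 (1.13 to 1.51), and in section 2 it was 5.67 (5.22 to 6.15). The 6 measured of 7 erythrocyte genes summed to 790, 113 and 31.6 CPM in chosen, nearby and remaining spots of section 2 and to 186, 65.4 and 8.94 CPM in section 1, with Slc4a1 at 0 in the chosen spots of section 2. Per spot, their sum had a median of 90.0 CPM and a highest value of 12980 CPM in the chosen spots of section 2, and a median of 0 and a highest value of 2805 CPM in section 1, while the median of nearby spots was 0 in both. Hba-a2 and Hbb-bs, the globins of red blood cells, were at 348 against 49.3 and 400.4 against 53.6 CPM in section 2 (419 and 482 UMIs in the chosen spots), and at 83.6 against 25.2 and 78.1 against 27.5 CPM in section 1 (45 and 42 UMIs). Their log2 fold changes were 2.25 ± 0.32 and 2.20 ± 0.34 (SE, edgeR adjusted p = 0.108 and 0.141). In section 2, 21 of the 78 chosen spots (26.9%) were also among the 78 spots with the highest hemoglobin CPM, and in section 1 11 of 63 (17.5%). Another 45 of 78 and 42 of 63 of those hemoglobin spots lay within 3 steps of chosen spots. Pf4, a platelet chemokine that macrophages also make, was at 246 against 80.7 CPM in section 2 and 119 against 82.4 in section 1, while the platelet gene Gp9 had 3 UMIs in the chosen spots of section 2 and 12 in section 1. The 7 platelet genes, all above 0, summed to 267 against 98.2 CPM in section 2, a ratio of 2.72 (2.41 to 3.06). In section 1 they summed to 177 against 110 CPM, a ratio of 1.61 (1.29 to 1.98). Most of these sums was Pf4, so the ratios mainly give that gene. The part of blood in the S100a8 and S100a9 signal was not tested.

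Macrophage genes, Arg1 among them, also had a higher summed CPM in the chosen than in nearby spots. The 11 macrophage genes, all above 0 in every region, summed to 12512, 10830 and 9485 CPM in chosen, nearby and remaining spots of section 1 and to 11812, 7191 and 4251 CPM in section 2. In UMIs per gene and spot this was 9.71, 12.6 and 20.8 in section 1 and 16.6, 15.2 and 6.55 in section 2. The spot medians were 1769 against 1531 CPM and 7475 against 3743 CPM. In section 1 the group of 11 touching spots was at 20389 CPM, and the 31 spots with 1 UMI of the pair at 1405 CPM. The higher sum of the chosen spots in section 1 thus depended on that group. Among as many spots with the highest sum were 2 of 63 (3.17%) and 9 of 78 (11.5%) chosen spots. Spp1, a matrix protein of tumor macrophages, was the most abundant, at 5856 against 4828 and 6651 against 3804 CPM. Arg1, the arginase of alternatively activated macrophages, was at 723 against 433 CPM in section 1 and at 1366 against 565 CPM in section 2. Among as many spots with the highest Arg1 were 8 of 63 (12.7%) and 11 of 78 (14.1%) chosen spots, where 1.99% and 2.00% of spots were chosen. Some macrophages and monocytes express S100a8, S100a9, Il1b and Il1rn, and their part in these values was not tested. The 6 measured monocyte genes summed to 370 against 369 CPM in section 1 and 198 against 155 CPM in section 2.

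Genes induced by low oxygen had a higher CPM in both sections for all 9 measured members of the list, as did 2780 of the 12330 genes over the floor (22.5%). Their sum was 1405 against 1043 CPM in section 1 and 2572 against 1500 CPM in section 2, or 1.33 against 1.48 and 4.41 against 3.89 UMIs per gene and spot. Adm, a vessel-dilating peptide, Vegfa, the main angiogenic factor, and Slc2a1, the glucose transporter, were at 168 against 68.0, 444 against 220 and 682 against 347 CPM in section 2. Rsad2, an interferon-induced gene, was at 159 against 59.5 and 113 against 46.7 CPM, whereas the other 7 interferon genes were not 2-fold higher in both sections. Fibroblast genes were lower in the chosen spots of section 1, at 11311 against 22442 CPM, and similar in section 2, at 548 against 507 CPM. Postn, a matrix protein of fibroblasts, was at 154 against 428 CPM in section 1 and 65.6 against 128 in section 2. The 6 measured proliferation genes summed to 190 against 282 CPM in section 1 and to 414 against 378 CPM in section 2, and T cell genes to 125 against 123 and 18.3 against 18.7 CPM.

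Epithelium under stress can make S100a8 and S100a9 as well, so both epithelial lists were read. The 9 markers of tumor epithelium were lower in CPM in the chosen spots of section 2, at 5268 against 6565, and at 87.4 against 51.8 in section 1. The 14 genes of squamous epithelium summed to 1479 against 1060 CPM in section 2, or 1.63 against 1.77 UMIs per gene and spot, led by Krt14, a keratin of basal cells, at 953 against 683 CPM, and gave 0.0431 against 0.0547 UMIs per gene and spot in section 1. Among as many spots with the highest tumor epithelium CPM were 0 of the 78 chosen spots of section 2 and 8 of the 63 of section 1 (12.7%), where 2.00% and 1.99% of spots were chosen. In section 1 these 9 genes gave 47 UMIs in the chosen spots, with a spot median of 0 CPM. That was 0.0829 UMIs per gene and spot, against 0.0734 nearby, so the overlap in section 1 rests on few UMIs in shallow spots. The part of epithelial cells in the pair's signal was not tested. Other lists with a ratio below 0.75 in a section were B and plasma cells (0.431), bone (0.588) and pericytes and smooth muscle (0.700) in section 1 and granule neurons (0.661) in section 2.

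Among the 23 genes that were 2-fold higher in both sections, some outside the lists were picked after their values were seen. Hmox1, the heme oxygenase that breaks down heme from red cells, was the most abundant, at 2189 against 842 CPM in section 1 and 1469 against 470 in section 2 (log2 fold change 1.46 ± 0.34, SE, edgeR adjusted p = 0.947). Hcar2, the receptor for hydroxybutyrate, Osm, the cytokine oncostatin M, and Gdf15, a stress cytokine, had log2 fold changes of 1.65 ± 0.35, 1.66 ± 0.40 and 1.52 ± 0.30.

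From 0 to 3 steps, the genes given here were at a lower CPM with distance from the chosen spots, more steeply for some than for others. Some other groups went the other way. Fibroblast genes in section 1 were at 11311 CPM at 0 steps and 28111 at 3, and tumor epithelium genes in section 2 at 5268 and 7181 CPM. Cxcr2, Il1r2, Csf3r and Hdc were picked from the 35 neutrophil genes with earlier results known. A peak of their sum in the chosen spots is thus partly built in and cannot stand for that list. All 35 together had a ratio of chosen to nearby CPM of 1.39 in section 1 and 1.07 in section 2. In section 2 the sum of Cxcr2, Il1r2, Csf3r and Hdc was 174 CPM in the chosen spots, 76.0 at 1 step, 53.2 at 2 and 38.7 at 3 steps. In section 1 it was 92.9, 60.7, 54.9 and 53.5 CPM. In UMIs per spot this sum was 2.69, 1.49, 1.27 and 0.994 in section 2, but 0.794, 0.620, 0.672 and 0.796 in section 1, where it reached 1.43 at 7 steps or more. Il1b and Il1rn together gave 341, 160, 98.8 and 76.8 CPM in section 2 and 294, 147, 108 and 96.3 in section 1, or 5.27 to 1.97 and 2.51 to 1.44 UMIs per spot from 0 to 3 steps. Hemoglobin gave 782, 237, 81.2 and 61.6 CPM in section 2 and 171, 127, 51.4 and 29.5 in section 1. Arg1 was at 723 CPM in the chosen spots, 335 at 3 steps and 28.2 at 7 steps or more in section 1. In section 2 it was at 1366, 442 and 87.6 CPM. At 7 steps or more, Cxcr2, Il1r2, Csf3r and Hdc together were at 53.8 CPM in section 1 and 29.0 in section 2. Il1b and Il1rn were at 48.1 and 29.6 CPM there. Median depth moved with distance, from 6018 UMIs at 0 steps to 8805 at 3 steps in section 1 and from 10940 to 22328 in section 2.

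**Figure D4:**
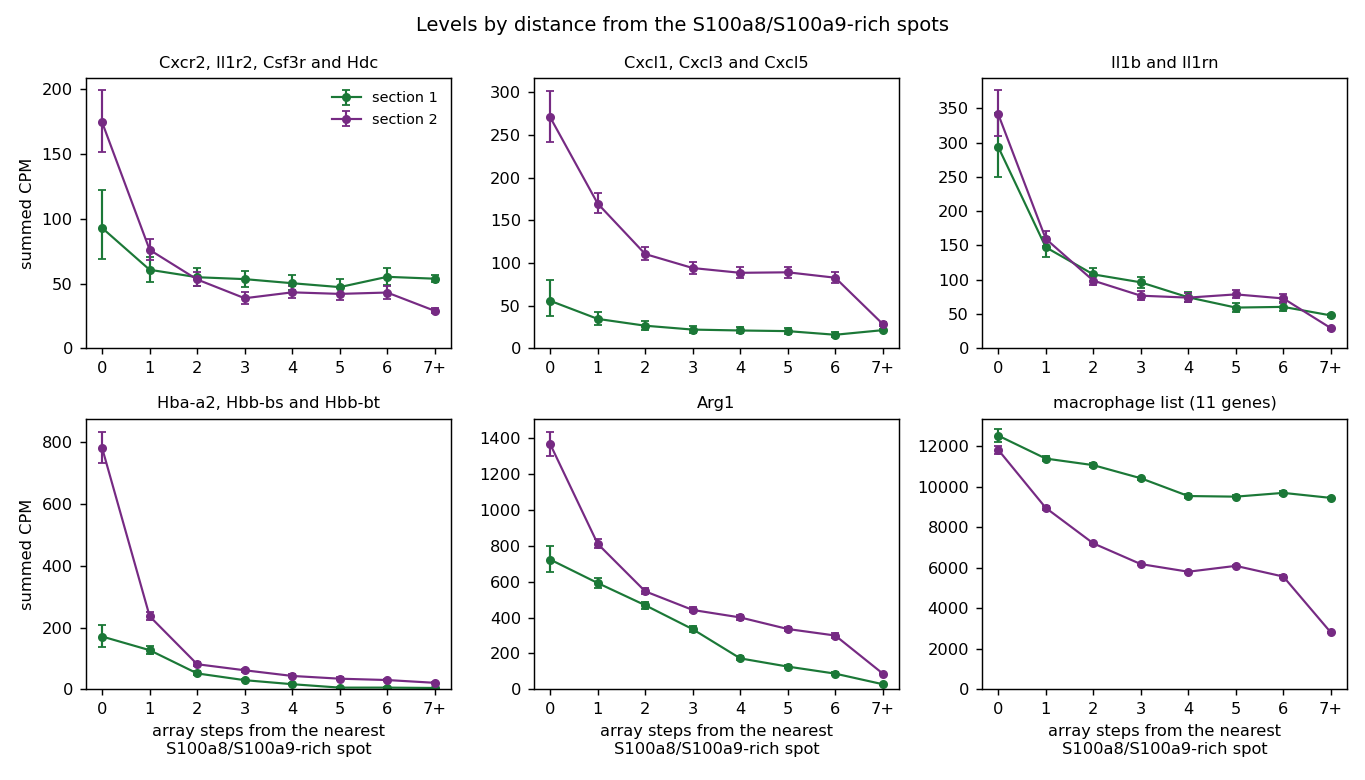
Summed CPM (y axis) of 6 genes or gene groups outside the pair in spots grouped by array steps to the nearest S100a8/S100a9-rich spot (x axis, 0 being those spots), in section 1 (green) and section 2 (purple), with exact 95% counting intervals. Cxcr2, Il1r2, Csf3r and Hdc were picked from the 35 neutrophil genes. In CPM, levels of the groups shown are highest at 0 steps in both sections, the hemoglobin sum dropping from 782 to 237 CPM at 1 step in section 2.

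The chosen spots of section 1 differed in content by their count of the pair. A spot with 1 UMI entered only at 6072 UMIs or fewer, so the low depth of such spots followed from the rule. The classes thus differ in depth, and the part of depth in their content was not tested. The 31 spots of section 1 with 1 UMI of the pair had a median of 4132 UMIs and carried genes of brain tissue. Oligodendrocyte genes were at 14016 CPM there, against 7113 in nearby spots, macrophage genes at 1405 CPM, against 10830, and Arg1 had 2 UMIs. The sum of Cxcr2, Il1r2, Csf3r and Hdc was 7 UMIs there, or 52.3 CPM (21.0 to 108), against 55.4 nearby. Its 21 spots with 3 or more UMIs had a median of 14199 UMIs and macrophage genes at 18130 CPM. Cxcr2, Il1r2, Csf3r and Hdc, picked from the 35 neutrophil genes, summed to 127 CPM (90.4 to 174) there. Il1b and Il1rn were at 447 CPM (375 to 528) against 111 nearby. In section 2 the 60 spots with 3 or more UMIs had the 4 genes at 175 CPM (152 to 202) and the 8 spots with 1 UMI at 293 CPM (118 to 603, 7 UMIs), against 52.6 nearby. Il1b and Il1rn there were at 363 CPM with 3 or more UMIs of the pair but at 83.6 and 48.9 CPM with 1 and 2 (2 and 3 UMIs), against 104 nearby. Cxcl1, Cxcl3 and Cxcl5 were at 288 CPM with 3 or more, against 118 nearby. With 1 and 2 UMIs of the pair they were at 41.8 CPM (1.06 to 233, 1 UMI) and 48.9 CPM (10.1 to 143, 3 UMIs). Both intervals include the nearby value.

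**Figure D5:**
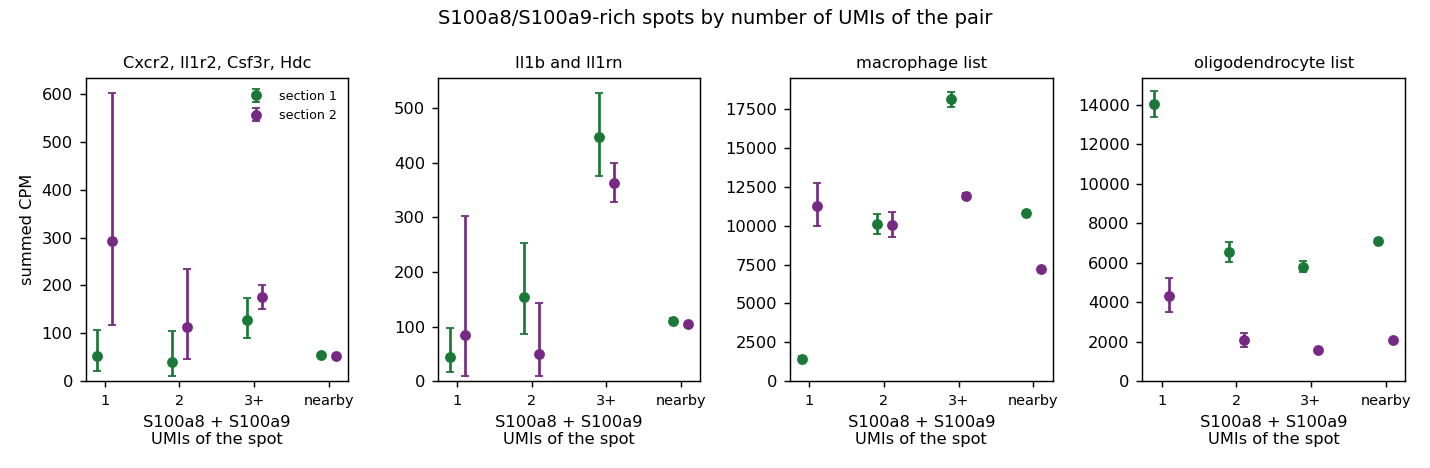
Summed CPM (y axis) of 4 gene groups in S100a8/S100a9-rich spots with 1, 2 and 3 or more UMIs of the pair and in nearby spots (x axis), in section 1 (green) and section 2 (purple), with exact 95% counting intervals. In section 1 the spots with 1 UMI have oligodendrocyte genes at 14016 CPM and macrophage genes at 1405 CPM, the spots with 3 or more the reverse order.

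One group of touching spots carried much of the difference in section 1. Its 11 spots held 40 of the 130 UMIs of the pair, macrophage genes at 20389 CPM, erythrocyte genes at 522 CPM and mature neutrophil genes at 599 CPM. Without these 11 spots, the ratio of the mature neutrophil genes in section 1 was 1.12 (0.902 to 1.37) in place of 1.54, that of the attractants 1.46 (1.14 to 1.86) in place of 1.92, and that of hemoglobin 1.08 (0.696 to 1.61) in place of 3.02. In section 2, leaving out the largest group of 10 spots gave 2.71, 2.87 and 7.18 in place of 2.68, 2.75 and 7.16. With both groups left out, edgeR called 0 genes and 291 had an unadjusted p under 0.05.

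The groups of section 2 lay in different surroundings. The group of 10 held Purkinje cell genes at 3464 CPM and epithelial genes at 95.1 CPM, the group of 7 macrophage genes at 30096 CPM, and the group of 5 epithelial genes at 9633 and hypoxia genes at 5352 CPM. The pair was at 435, 454 and 334 CPM in them, and the mature neutrophil genes at 367, 545 and 491 CPM. A group of 4 spots, with Purkinje cell genes at 4695 CPM, had the pair at 376 CPM and mature neutrophil genes at 104 CPM, beside 157 CPM in nearby spots. The 4 spots held 47923 UMIs in all, so their 104 CPM rests on few molecules and cannot be placed below nearby spots. Attractants ranged from 177 CPM in the group of 10 to 1621 CPM in a group of 6, which had epithelial genes at 5471 CPM. High S100a8 and S100a9 was thus measured in spots rich in epithelial, macrophage and Purkinje cell genes of the same section.

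The number of genes called changed with the spots and libraries in the fit. When chosen spots also needed 3 UMIs of the pair or more, which left 21 and 60 spots, edgeR called 20 genes higher (0.105% of 19027 tested) and 5 lower. Among the 20 were Il1rn, Cxcl3, Il1r2, Il1b, Hdc, Clec4d, Csf2, Pf4 and Hmox1, and Ltf was among the 5. Fitted log2 fold changes stayed close to the main ones, at 1.46 beside 1.45 for Il1rn, 2.82 beside 2.90 for Cxcl3 and 1.17 beside 1.27 for Clec4d. The common dispersion was 0.0193, beside 0.0489 in the main fit. The cause of the added calls was not tested. With only the libraries of chosen and nearby spots in the fit, which leaves 1 residual degree of freedom, 90 genes were called higher and 31 lower.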

How the data were processed

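The authors sequenced Visium CytAssist libraries from 2 fixed sections of 5 µm and counted with Space Ranger 2.1.1 (build mm10, per the labels). The deposited counts are raw UMIs of 19465 genes per spot under tissue. Their region of interest, filters and clusters were not used here. Array positions were taken from the deposited position tables, and 3096 spot barcodes lay under tissue in both sections, since the arrays share one set. Spots under 2000 UMIs (242 and 115) were left out.

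UMIs were summed by section and region (538056 to 50221934 per library, TMM factors 0.898 to 1.16). edgeR 4.0.16 in R 4.3.3 was used with filterByExpr by region, robust glmQLFit and glmQLFTest, with the section as a block because regions of a section share a mouse. The common dispersion, 0.0489, was 0.175 when the block was dropped. S100a8 and S100a9 were not tested, as they chose the spots. p-values rest on 2 sections whatever the depth, and they also depended on the libraries and spots in the fit. The common dispersion was 0.0123 with only the chosen and nearby libraries and 0.0193 with 3 UMIs of the pair or more. CPM printed in the text are raw shares, and fold changes of the fit are TMM-scaled. Standard errors were derived from the F statistic. The fit was first tested on simulated data. Doublets do not apply to spots. Intervals were computed in Python 3.11.15 with scipy 1.17.1, and matplotlib 3.10.9 made the plots.

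The spots, gene lists and tests were chosen with earlier results of these data known. Genes named were the members of the neutrophil and related pathway lists, in other lists the most abundant member and that of largest fold change, and the 10 largest called changes each way, of which there were none. Some listed genes, such as Cxcl2 and Saa1, were not analysed here. The 36 lists covered granules, mature neutrophils, attractants, receptors, oxidase, adhesion, tumor neutrophils, IL1 response, hypoxia, interferon, proliferation and 23 other cell types. Alternatives were DESeq2 1.42.0, RLE factors, library size alone, no low-count filter, no section block, fewer or more libraries, other distances, 1% and 5% of spots, 5000 UMIs, S100a8 alone, 3 UMIs of the pair, thinning to 2000 UMIs, leaving out each section, and, added after the data were seen, depth-matched nearby spots, UMIs per spot and leaving out the largest group of touching spots.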

Additional observations from a re-analysis of the deposited data

Results flagged for a closer look

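Spots under 2000 UMIs entered no comparison. S100a8 and S100a9 together had 6 UMIs in the 242 such spots of section 1 and 7 UMIs in the 115 of section 2, which is more than the 3 counts that a count of 0 allows. Per gene and spot this does not exceed the 0.0312 UMIs that mast cell and basophil genes reached in the nearby spots of section 1. Those spots had a median of 8053 UMIs, so the comparison is unequal in depth. It cannot decide whether the pair was above background in the shallow spots, and there was no control section.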

How the results depend on the processing

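edgeR called no gene higher or lower in the main setting, and neither when scaled by library size alone, without the section block, with nearby spots at 1 step, with the top 5%, with 5000 UMIs, nor with the 3 settings added later. Genes called higher were 5 with DESeq2, 4 with RLE factors, 3 without the low-count filter, 90 with only the chosen and nearby libraries, 5 with steps as separate libraries, 1 with nearby spots at 2 and 3 steps, 9 with the top 1%, 9 on S100a8 alone, 20 with 3 UMIs of the pair and 3 after thinning, and genes called lower were 31 with only those libraries, 3 with the top 1% and 5 with 3 UMIs. Of 756 values for 38 single genes, 671 kept direction and side of the threshold, 79 passed it and 6 turned direction: leaving out a section in turn gave log2 fold changes of -0.05 (without section 2) to 1.63 (without section 1) for Csf3r, -0.21 to 1.15 for Mmp9, 0.70 to -1.58 for Ltf and -0.63 to 2.54 for Ppbp, and Cxcl5 was at -0.23 after thinning and Csf2 at -0.14 with the top 1%. The cause was not tested, and a single section allows values but no test. The ratio of all neutrophil genes, 1.39 in section 1 and 1.07 in section 2, became 1.54 and 2.18 without Ltf, Lcn2, Hp and Mmp9, 1.63 and 1.16 with the top 1%, 1.11 and 1.12 without the largest groups, and, counted as UMIs per spot, 0.928 and 0.708, a scale on which all tested genes had a median of -0.555 (log2). In section 1 it was 1.26 with nearby spots at 1 step and 1.27 with depth-matched ones, and in section 2 0.964 at 1 step, 0.987 after thinning, 1.23 with the top 5% and 1.25 on S100a8 alone. Depth limits section 1, where most single neutrophil genes had under 20 UMIs in the chosen spots.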
